A study of Mus musculus with 312 samples.

Results

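The G1 cyclins, the CDK inhibitors and the p53 axis are described here for 10 genes in single cells labelled as basal epithelium of the mouse mammary gland. The genes were taken by symbol, as a list of regulators of entry into the cell cycle, and comprised 3 D cyclins (Ccnd1, Ccnd2, Ccnd3), 2 kinases (Cdk4, Cdk6), 3 inhibitors (Cdkn1a, Cdkn1b, Cdkn1c), Trp53 and Mdm2. They are 10 of the 25135 genes used, out of 27179 gene IDs in the files. All 10 were present, and 9 of them reached 10 CPM as the mean over the sets of cells compared, where CPM gives a gene's reads per 1000000 assigned reads in the same cell. The exception was Cdk6.

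RNA was measured in 312 cells of FVB/NJ mice, captured one by one on the Fluidigm C1, an instrument that makes cDNA from each cell in its own chamber. The labels give 112 adult cells whose title carries the mark (2), 125 adult cells without it, called unmarked here, and 75 pregnancy cells, all with the cell source basal. No genotype, treatment, day of pregnancy or animal is given by the labels, the mark (2) is not explained, and the study describes its C1 cells from pregnancy as total epithelium, so the stage comparison rests on the labels. Each set was treated as 1 sample, so no difference below has a replicate check or a p-value, and a difference of stage cannot be told apart from one of capture run. The comparison asks how these regulators differ between basal cells of the adult and of the pregnant gland, and the difference between the 2 adult sets is shown beside it.

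Cells with at least 50000 assigned reads and 1000 genes were retained, which left 81 marked adult, 58 unmarked adult and 71 pregnancy cells. Their median depth was 174910, 101320 and 230643 assigned reads. After each cell was thinned to 50000 reads, the median number of genes was 2328, 2203 and 3221, so cells of the pregnancy set held more genes at equal depth. Mitochondrial genes took a median of 9.65%, 15.6% and 18.4% of reads. At least 6 of 11 core basal genes reached 100 CPM in 76 of 81, 51 of 58 and 70 of 71 cells. At least 3 of 7 genes shared by luminal cells (such as Krt8 and Epcam) did so in 17, 8 and 6 cells. For 7 genes of luminal progenitors this count was 0 in each set, for 7 genes of mature luminal cells 0, 3 and 0, and for 8 immune genes 1, 0 and 0. The summed median of 8 fibroblast genes was 4.22, 28.8 and 561 CPM, and most of it in pregnancy was Dcn, found in 25.9%, 56.9% and 100% of cells, while at least 3 of the 8 genes reached 100 CPM in 0, 3 and 3 cells. Lum and Dpt had no read in the marked set. The part of these differences in the values below was not tested, and fewer cells with a transcript and less RNA per cell are both read from the same counts.

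In G1, mitogens raise the D cyclins, which bind CDK4 or CDK6, and the active kinases phosphorylate the retinoblastoma proteins and so release E2F factors for DNA synthesis. The CIP/KIP inhibitors p21 (Cdkn1a), p27 (Cdkn1b) and p57 (Cdkn1c) bind cyclin-CDK complexes. The tumour suppressor p53 (Trp53) activates Cdkn1a and Mdm2, and MDM2 marks p53 for degradation. In the mammary gland cyclin D1 is known for its role in the growth of alveoli in pregnancy.

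Levels per length were compared within each set as RPKM, that is CPM per kilobase of exon. In marked adult cells Cdkn1a had the highest mean (296 RPKM), followed by Trp53 (221), Ccnd1 (119), Cdk4 (99.7), Ccnd2 (86.4), Mdm2 (51.8), Cdkn1c (31.8), Ccnd3 (5.88), Cdkn1b (4.58) and Cdk6 (0.101). In unmarked adult cells Trp53 (261 RPKM) and Cdk4 (158 RPKM) came before Cdkn1a (140 RPKM). In pregnancy cells Cdkn1a (197 RPKM) was first again, and Trp53 was the fifth with 103 RPKM. The SD over cells was larger than the mean for each member in each set, so neighbours in this order do not differ beyond the spread over cells.

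**Figure D1:**
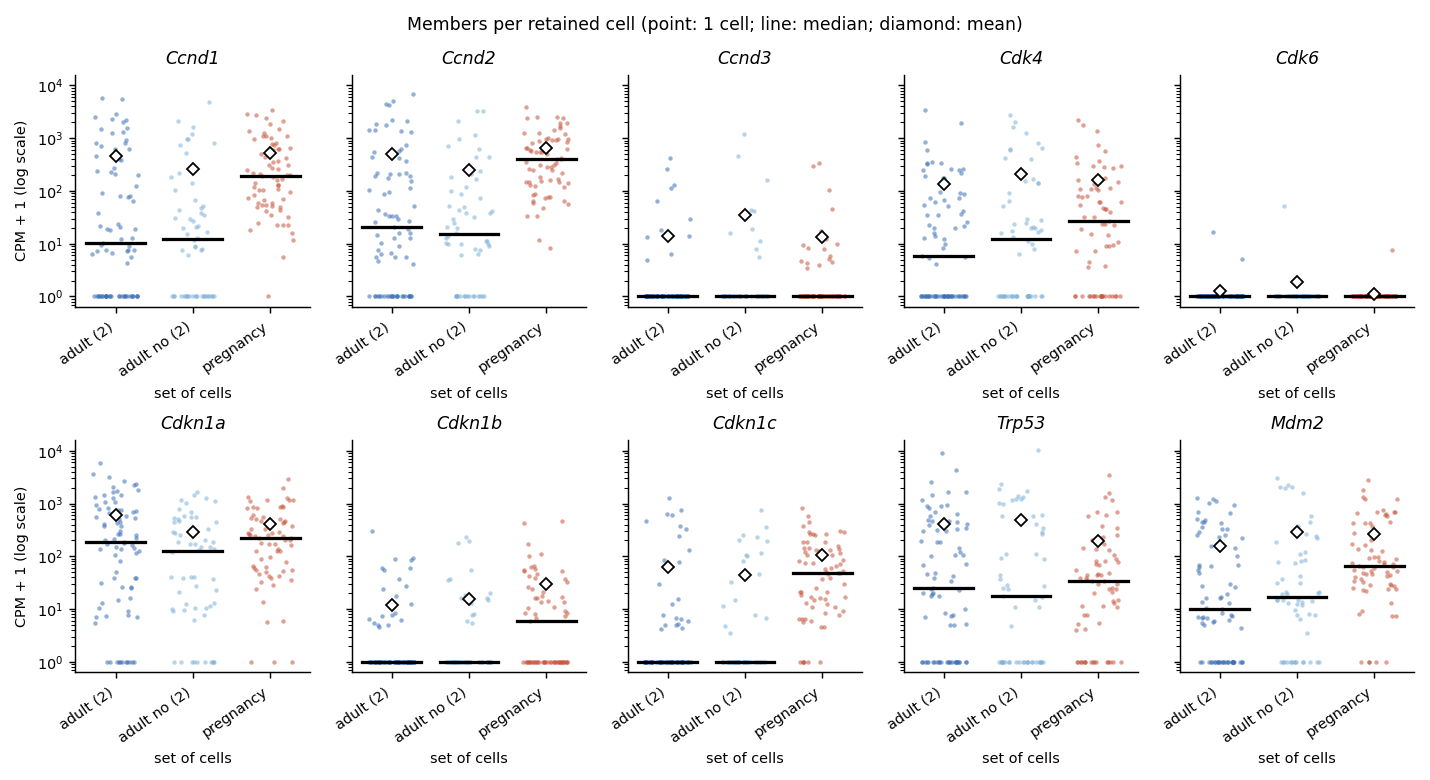
CPM + 1 of each member in every retained cell, on a log axis, for adult (2) cells (81), adult cells without the mark (58) and pregnancy cells (71). Points are cells, lines are medians and diamonds are means. The medians of Ccnd1, Ccnd2 and Cdkn1c lie higher in pregnancy (193, 400.2 and 46.5 CPM) than in either adult set, while their means differ less. Medians are also highest in pregnancy for Mdm2, Cdk4, Cdkn1a, Cdkn1b and Trp53, while those of Ccnd3 and Cdk6 are 0 in each set.

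Ccnd1, which encodes cyclin D1, was read in nearly every pregnancy cell and in about every other adult cell. Its CPM ranged from 0 to 5777 (median 9.40) in marked adult cells, from 0 to 4891 (median 11.5) in unmarked adult cells and from 0 to 3474 (median 193) in pregnancy cells. The 95% intervals of the medians were 5.45 to 36.8, 0 to 28.4 and 103 to 311 CPM. The pregnancy interval lay above both adult intervals although the ranges overlapped. Intervals of medians and shares, here and below, take cells as the unit. Cells are not replicates of a stage, so intervals that overlap or lie apart describe these cells and are no test of stage. The mean was 451, 264 and 516 CPM. Ratios are given throughout as log2 of the mean CPM + 10 of one set over that of another. Pregnancy over adult was 0.19 against the marked set and 0.94 against the unmarked set, and the unmarked over marked ratio was -0.75. The 10% of cells with the highest values held 72.0%, 77.0% and 50.1% of all Ccnd1 CPM, so the sum was spread over more cells in pregnancy. Ccnd1 lies on chr7:144929931-144939831, minus strand (GRCm38), and 1100 of its exonic bases overlap LTO1 on the opposite strand, whose reads are not told apart unless counting used the strand, which is not stated.

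Ccnd2, which encodes cyclin D2, had the highest median of the 10 members in pregnancy. CPM ranged from 0 to 6974 (median 20.1) in marked adult cells, from 0 to 3277 (median 14.1) in unmarked adult cells and from 7.44 to 3839 (median 400.2) in pregnancy cells. All 71 pregnancy cells had a Ccnd2 read before thinning, against 57 of 81 and 42 of 58 adult cells. The intervals of the medians were 6.49 to 51.3, 8.80 to 37.2 and 247 to 590 CPM. The mean was 499, 253 and 666 CPM, with log2 ratios of 0.41 against marked and 1.36 against unmarked adult cells. The unmarked over marked ratio was -0.95. Ccnd2 lies on chr6:127125162-127152188, minus strand, and its exonic bases overlap 9330179D12Rik (368 bases) and Gm43126 (372 bases) on the opposite strand.

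Ccnd3, which encodes cyclin D3, was low and in few cells in each set. Its median was 0 CPM in all of them, the highest cells had 428, 1207 and 343 CPM, and the means were 13.3, 34.0 and 12.5 CPM. The mean of the unmarked set rested on 1 cell, which held 61.2% of the sum, and was 13.4 CPM without it. Of the summed RPKM of the D cyclins, Ccnd1 took 56.3%, 54.2% and 52.9%, Ccnd2 took 40.9%, 34.1% and 44.9%, and Ccnd3 took 2.78%, 11.7% and 2.15%. The exon length counted for Ccnd3 is 25.8% of its length in GENCODE, 361 of its bases overlap Bysl on the opposite strand, and a pseudogene, Ccnd3-ps, is annotated, so its level is uncertain. Ccnd3 lies on chr17:47505051-47599689, plus strand.

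Cells were then compared by whether they had at least 1 read after thinning, which at 50000 reads is 20 CPM. Ccnd1 was found in 54.3% of marked adult cells (44 of 81, exact interval 42.9 to 65.4%), 50.0% of unmarked adult cells (29 of 58, 36.6 to 63.4%) and 93.0% of pregnancy cells (66 of 71, 84.3 to 97.7%). Ccnd2 was found in 54.3% (42.9 to 65.4%), 50.0% (36.6 to 63.4%) and 98.6% (92.4 to 99.96%). For both cyclins the pregnancy interval did not overlap either adult interval, and the adult intervals overlapped each other. How many of all genes have intervals apart in this way, of shares or of medians, was not counted. Ccnd3 was found in 7.41%, 13.8% and 12.7% of cells, and its intervals overlapped in all sets. Both Ccnd1 and Ccnd2 were found in 38.3% of marked adult cells (27.7 to 49.7%), 29.3% of unmarked adult cells (18.1 to 42.7%) and 91.5% of pregnancy cells (82.5 to 96.8%). No D cyclin was found in 21 of 81 marked adult cells (25.9%, 16.8 to 36.9%) and 15 of 58 unmarked adult cells (25.9%, 15.3 to 39.0%), but in 0 of 71 pregnancy cells (3 counts would be 4.23%, the limit for a count of 0).

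**Figure D2:**
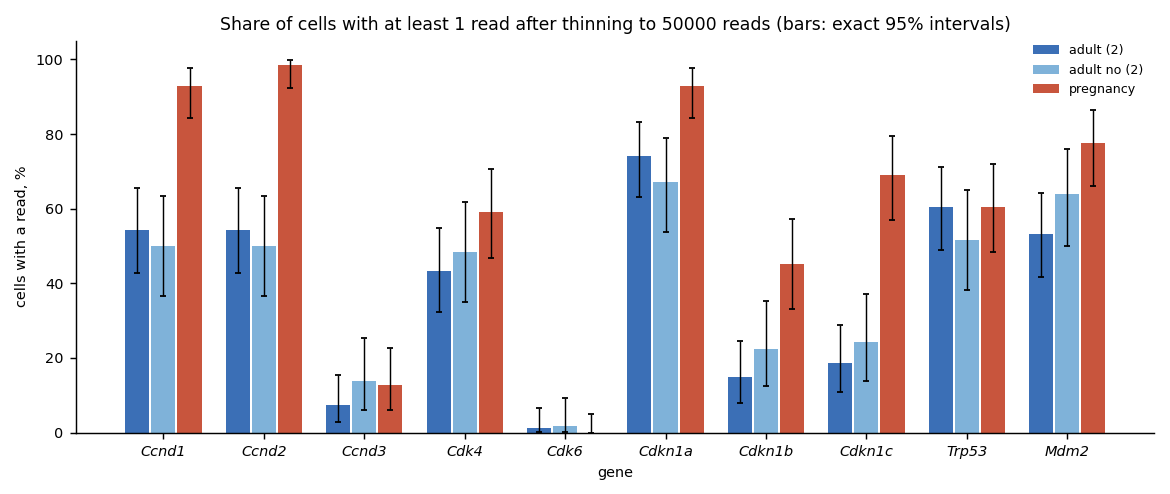
Percent of retained cells with at least 1 read of each member after thinning to 50000 reads, by set, with exact 95% intervals. The pregnancy bars of Ccnd1 (93.0%), Ccnd2 (98.6%), Cdkn1a (93.0%) and Cdkn1c (69.0%) have intervals above those of both adult sets, and the bars of Trp53 (60.5%, 51.7% and 60.6%) do not differ beyond their intervals. The mean of Cdkn1a did not follow its share. How many of all genes have intervals apart in this way was not counted. Over all genes the share was higher in pregnancy by a median of 7.25 points (marked) and 7.19 points (unmarked).

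Of the kinases that partner the D cyclins, Cdk4 gave nearly all reads. Cdk4 CPM ranged from 0 to 3379 (median 4.97) in marked adult cells, from 0 to 2798 (median 11.3) in unmarked adult cells and from 0 to 2225 (median 25.7) in pregnancy cells. The means were 134, 213 and 158 CPM, and the log2 ratios of pregnancy were 0.22 against marked and -0.41 against unmarked adult cells, so the mean gave no common direction. Cdk4 was found in 43.2%, 48.3% and 59.2% of cells, with intervals that overlapped (32.2 to 54.7%, 35.0 to 61.8% and 46.8 to 70.7%). Cdk4 (chr10:127063535-127067288, plus strand) shares 641 exonic bases with Tspan31 on the opposite strand.

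Cdk6, the alternative partner of the D cyclins, was close to absent from the counts. It had 6, 5 and 1 reads in the 3 sets (exact Poisson intervals 2.20 to 13.1, 1.62 to 11.7 and 0.0253 to 5.57), in 2 of 81, 1 of 58 and 1 of 71 cells, and no ratio is given. Cdk4 made up 99.9%, 99.8% and 99.97% of the summed RPKM of both kinases. The exon length counted for Cdk6 (chr5:3341004-3531008, plus strand) is 2470 bases, 17.7% of its 13989 bases in GENCODE, so reads from the rest of its transcripts were not counted. Of its exonic bases 368 overlap Gm17590 on the opposite strand.

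Cdkn1a, which encodes p21, was the most widely found member in adult cells. CPM ranged from 0 to 5767 (median 184) in marked adult cells, from 0 to 1689 (median 125) in unmarked adult cells and from 0 to 2921 (median 223) in pregnancy cells. The intervals of the medians overlapped (113 to 378, 22.0 to 185 and 127 to 321 CPM). The mean was 600.4, 283 and 400.0 CPM, so pregnancy lay between the adult sets, with log2 ratios of -0.57 and 0.48. Between the adult sets the ratio was -1.06, larger in size than either ratio of pregnancy. Cdkn1a was found in 74.1% (63.1 to 83.2%), 67.2% (53.7 to 79.0%) and 93.0% (84.3 to 97.7%) of cells, but since the mean did not follow this order, none is read from it. Of the exonic bases of Cdkn1a 273 overlap AC167363.2 on the opposite strand.

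The region before the upstream start of Cdkn1a is shown because p53 is known to act on this gene through sites of this kind. The 250 bases before that start, from the RefSeq table of GRCm38.p6, lie on chr17:29090729-29090978, plus strand, and 3 of them are exonic in GENCODE. Capitals mark matches to the p53 half-site consensus.

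Cdkn1a: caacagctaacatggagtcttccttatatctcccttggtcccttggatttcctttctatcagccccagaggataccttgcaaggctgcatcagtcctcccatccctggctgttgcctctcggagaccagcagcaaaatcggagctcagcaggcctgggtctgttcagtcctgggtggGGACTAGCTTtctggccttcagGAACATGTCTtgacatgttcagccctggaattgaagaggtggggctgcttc

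Mdm2: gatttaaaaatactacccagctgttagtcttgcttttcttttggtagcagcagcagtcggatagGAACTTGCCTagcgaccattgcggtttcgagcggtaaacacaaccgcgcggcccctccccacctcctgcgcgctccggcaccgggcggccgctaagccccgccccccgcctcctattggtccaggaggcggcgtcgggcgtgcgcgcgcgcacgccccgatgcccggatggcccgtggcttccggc

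The Mdm2 bases lie on chr10:117710759-117711008, minus strand, with 0 exonic bases. The half-site reads the same on both strands and has 10 bases. It was found in 7.13% of 32851 windows of this length, and in 3 of the 9 windows of members in the table, those of Cdkn1a, Mdm2 and Trp53. A pair of half-sites at most 13 bases apart was found in 0.0639% of all windows, and among members in that of Cdkn1a, where 12 bases lie between them. Only exact matches were counted. In Cdkn1a the 10 bases directly after the marked half-site nearer the start differ from the consensus at their opening base, so they were left unmarked. The marked pair is therefore not the only reading of this window. Of 20 windows of 15 genes from a list of p53 targets, 6 held a half-site and 0 held a pair. The table had no window for Ccnd1, Ccnd2 and Cdkn1c. A match is a description of the letters, and the counts do not bear on binding.

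Cdkn1b and Cdkn1c were sparse in adult cells and were found in more pregnancy cells. Cdkn1b, which encodes p27, ranged from 0 to 296 CPM in marked adult cells, from 0 to 232 in unmarked adult cells and from 0 to 469 in pregnancy cells, with medians of 0, 0 and 4.96 CPM. Its means were 11.0, 14.6 and 29.3 CPM (log2 ratios 0.90 and 0.67), below 1 on the log2 scale against either adult set. Cdkn1b was found in 14.8% (7.90 to 24.4%), 22.4% (12.5 to 35.3%) and 45.1% (33.2 to 57.3%) of cells, and the pregnancy interval overlapped that of the unmarked set. Cdkn1b lies on chr6:134920401-134925525, plus strand, with no overlapping exon annotated.

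Cdkn1c, which encodes p57, had the largest difference in share of the 10 members against the marked set. CPM ranged from 0 to 1246 in marked adult cells, from 0 to 767 in unmarked adult cells and from 0 to 822 in pregnancy cells, with medians of 0, 0 and 46.5 CPM. It was found in 18.5% (10.8 to 28.7%), 24.1% (13.9 to 37.2%) and 69.0% (56.9 to 79.5%) of cells. The means were 61.8, 43.6 and 103 CPM, with log2 ratios of 0.65 and 1.07. In marked adult cells the 10% of cells with the highest values held 94.9% of its CPM, against 79.6% and 46.2% in the unmarked and pregnancy sets. Of its exonic bases 625 overlap Gm44732 on the opposite strand of chr7:143458339-143461059, where Cdkn1c is on the minus strand.

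At least 1 CIP/KIP inhibitor was found in every pregnancy cell, while none was found in 16 of 81 (19.8%, 11.7 to 30.1%) and 12 of 58 (20.7%, 11.2 to 33.4%) adult cells. At least 2 inhibitors were found in 19 marked adult, 17 unmarked adult and 53 pregnancy cells, and all 3 in 3, 3 and 23 cells. Of the summed RPKM of the inhibitors, Cdkn1a took 89.1%, 83.0% and 75.2%, and Cdkn1c took 9.56%, 13.3% and 20.1%. The median number of the 10 members found in a cell was 4, 4 and 6. These counts go with the larger number of genes per thinned cell in pregnancy, and how far they follow it was not tested.

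**Figure D3:**
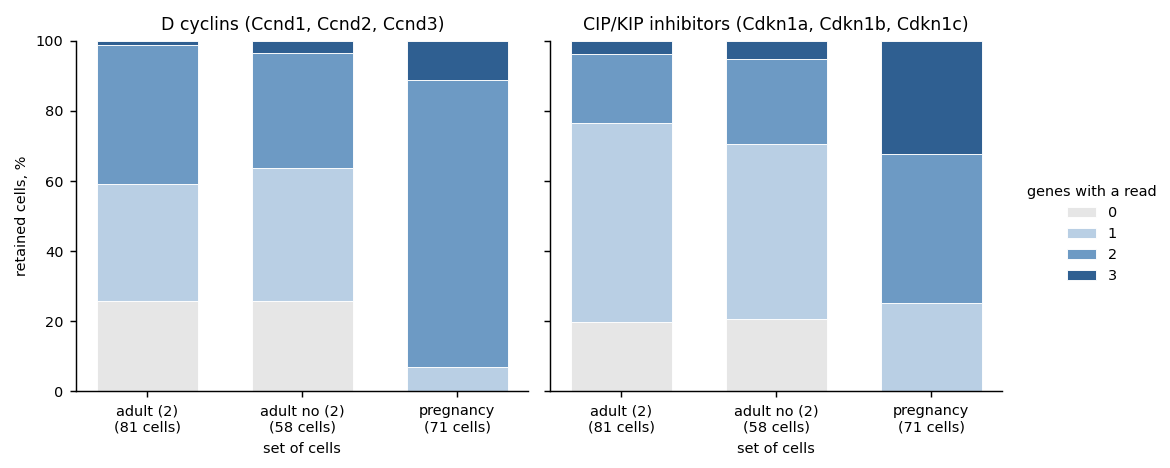
Percent of retained cells with reads of 0, 1, 2 or 3 D cyclins (left) and 0, 1, 2 or 3 CIP/KIP inhibitors (right) after thinning to 50000 reads, by set. No pregnancy cell had 0 of either family, and 11.3% of pregnancy cells had 3 D cyclins against 1.23% and 3.45% of adult cells.

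Trp53, which encodes p53, was the 1 member whose mean in pregnancy was lower than in both adult sets by more than 1 on the log2 scale. CPM ranged from 0 to 9166 (median 23.6) in marked adult cells, from 0 to 10173 (median 16.4) in unmarked adult cells and from 0 to 3507 (median 32.6) in pregnancy cells. The mean was 412, 488 and 193 CPM, with log2 ratios of -1.06 and -1.29, while the adult sets differed by 0.24. The medians and the share of cells did not follow the mean. Intervals of the medians overlapped (7.39 to 103, 0 to 88.0 and 13.0 to 47.9 CPM), and Trp53 was found in 60.5% (49.0 to 71.2%), 51.7% (38.2 to 65.0%) and 60.6% (48.3 to 72.0%) of cells.

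The Trp53 means turned on cells of high values. The highest cell held 27.5%, 36.0% and 25.6% of the sum in its set, and the means without it were 303, 318 and 146 CPM. At least 1000 CPM was reached in 7 marked adult, 10 unmarked adult and 4 pregnancy cells, and the upper quartile was 336, 390 and 116 CPM. With the mean over cells of log2(CPM + 10), the ratios were -0.39 and -0.23. With summed reads of a set in place of the mean over cells the ratio against marked adult cells was -0.94, and with a pseudocount of 100 CPM it was -0.80. Each of these ends the call. Trp53 lies on chr11:69580348-69591873, plus strand, and a processed copy, Trp53-ps, is annotated on chromosome 17, so reads of both may be shared.

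Mdm2, a target and antagonist of p53, ranged from 0 to 1297 CPM (median 8.89) in marked adult cells, from 0 to 3017 (median 15.9) in unmarked adult cells and from 0 to 2786 (median 64.5) in pregnancy cells. The intervals of the medians were 5.03 to 26.7, 11.6 to 36.4 and 44.5 to 97.5 CPM, and the pregnancy interval lay above both. They are intervals over cells, and how many of all genes have medians apart in this way was not counted. The means were 157, 285 and 268 CPM, so that pregnancy was higher than the marked set (log2 ratio 0.74) and level with the unmarked set (-0.08). Mdm2 was found in 53.1% (41.7 to 64.3%), 63.8% (50.1 to 76.0%) and 77.5% (66.0 to 86.5%) of cells. Both Cdkn1a and Mdm2 were found in 38.3%, 41.4% and 71.8% of cells, and both Trp53 and Mdm2 in 34.6%, 37.9% and 49.3%.

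The members were then set beside all genes. A gene was counted as higher or lower when its log2 ratio of means passed 1 in size in the same direction against both adult sets, among the 8411 genes that reached 10 CPM as the mean of the set means. Of the 10 members 0 were higher, against 8.75% of all genes, and 1 was lower, Trp53, against 5.18%. Between the adult sets 0 members were higher in unmarked cells, against 16.1% of all genes, and 1 was lower, Cdkn1a, against 17%. That call is lost with a pseudocount of 100 CPM (-0.87) and with the mean of log2(CPM + 10) (-0.83). The median log2 ratio of the 10 members was 0.20 against the marked set and 0.20 against the unmarked set. Over the 9 members that reached 10 CPM it was 0.22 and 0.48, and over all genes that did so 0.05 and 0.08. The median size of the ratio over all genes was 0.63 and 0.72, and 0.65 between the adult sets. By ratio of means the adult sets thus differed from each other about as much as pregnancy differed from either.

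By share of cells, 3 members, Ccnd1, Ccnd2 and Cdkn1c, were found in more pregnancy cells by at least 25 points against both adult sets, against 7.81% of all genes. This limit was chosen after the shares were seen. No member was found in fewer pregnancy cells by that limit, against 0.119% of all genes. Over all genes the median difference was 7.25 points against the marked set and 7.19 points against the unmarked set, so a higher share in pregnancy was general. Between the adult sets (unmarked minus marked) it was 0.23 points. The median size of the difference was 4.79 points between the adult sets, and 8.85 and 8.89 points for pregnancy against marked and unmarked cells. The differences of Ccnd1 were 38.6 and 43.0 points, those of Ccnd2 44.3 and 48.6 points and those of Cdkn1c 50.5 and 44.9 points. Among the other members the differences of Cdkn1b were 30.3 and 22.7 points, and those of Trp53 were 0.0696 and 8.84 points.

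**Figure D4:**
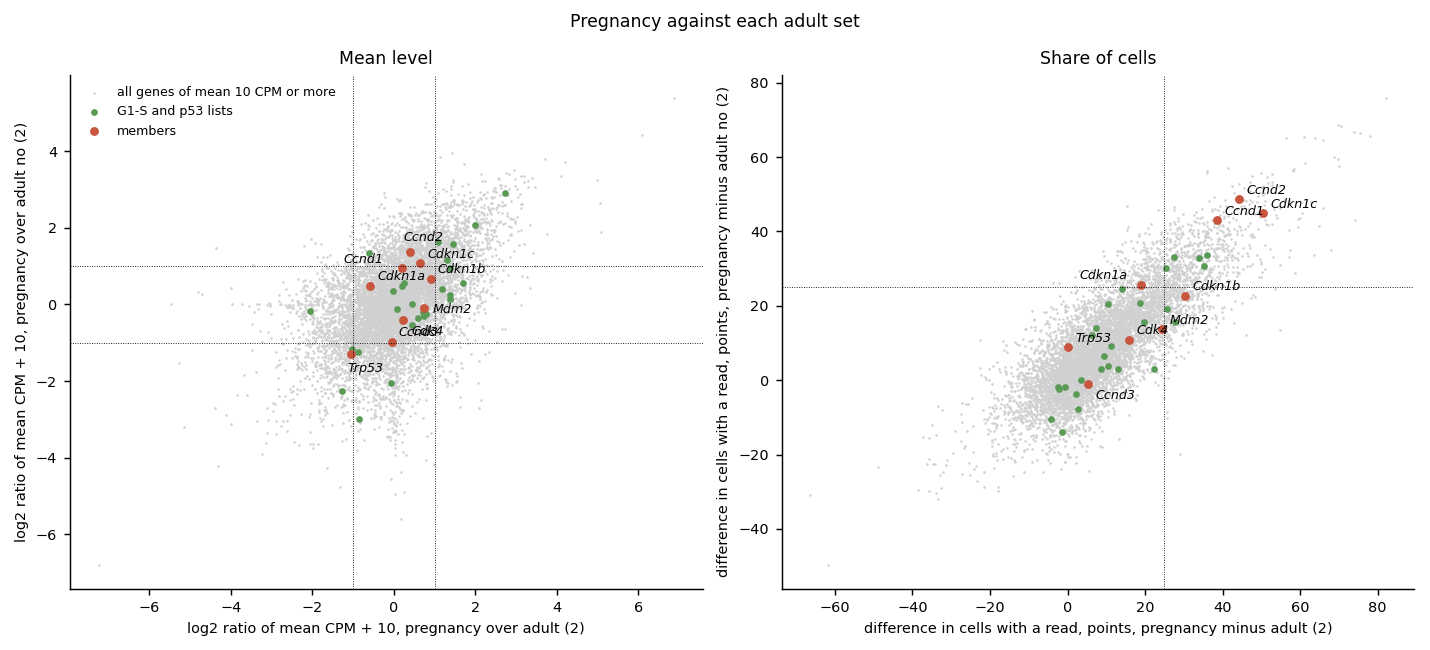
Left, pregnancy against adult (2) cells (x) as the log2 ratio of mean CPM + 10, and against adult cells without the mark (y). Right, difference in the percent of cells with a read, in points, on the same axes. Grey points are 8411 genes, green points the genes of the G1-S and p53 lists, red points the 9 members above the limit on low values, and dotted lines the limits of 1 and 25 points. On the left Trp53 lies beyond -1 on both axes (-1.06 and -1.29), and on the right Ccnd1, Ccnd2 and Cdkn1c lie beyond 25 points on both.

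Other genes of the pathway were taken from 3 lists, 19 genes of the G1 to S transition, 20 targets of p53 and 5 regulators of p53 or relatives. Of these 44 genes, 27 reached 10 CPM, of which 5 were higher and 2 were lower in pregnancy than in both adult sets, against 8.75% and 5.18% of all genes. In unmarked against marked adult cells 7 were higher and 2 lower, against 16.1% and 17% of all genes. By share of cells 5 were higher in pregnancy by 25 points, against 7.81% of all genes, and 0 were lower. The median log2 ratio over the 44 genes was 0.10 and 0.14 against the marked and unmarked sets, and over the 27 that reached 10 CPM it was 0.60 and 0.15.

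Among the 19 genes of the G1 to S transition, 2 were higher, E2f3 and E2f4, and 0 were lower. E2f4, an E2F factor that acts mainly as a repressor, had means of 24.1, 13.6 and 62.9 CPM and was found in 12.3%, 10.3% and 31.0% of cells, but 1 pregnancy cell held 64.0% of its sum, and its call is lost without the highest cell of each set. E2f3, an activating E2F factor, had means of 4.95, 3.24 and 89.4 CPM and was found in 3.70%, 6.90% and 7.04% of cells, so that difference rested on few cells. The genes of highest mean in this list were Myc, Cks1b and Rbl2. Myc had means of 450, 111 and 294 CPM, so pregnancy lay between the adult sets. Cks1b, a cofactor of the ligase that degrades p27, had means of 33.1, 48.5 and 102 CPM (log2 ratios 1.38 and 0.94) and was found in 19.8%, 24.1% and 54.9% of cells. Rbl2, a relative of the retinoblastoma protein, had means of 43.7, 59.0 and 19.1 CPM and was found in 13.6%, 3.45% and 23.9% of cells. In the unmarked set 1 cell held 98.4% of its sum, and without the highest cell of each set the means were 16.7, 0.961 and 12.2 CPM. Of the 4 INK4 inhibitors, Cdkn2a and Cdkn2b had at most 0.622 and 0 CPM on average in a set, and Cdkn2c at most 3.34 CPM. Cdkn2d was higher, with means of 10.3, 30.2 and 17.5 CPM, and was found in 8.64%, 19.0% and 11.3% of cells.

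Among the 20 p53 targets, 2 were higher (Perp and Zmat3) and 1 was lower (Trp53inp1). The median log2 ratio was 0.06 and 0.01 over the 20, and 0.20 and -0.12 over the 13 that reached 10 CPM. Perp, a target of p53 and p63 that encodes a desmosomal protein, had means of 546, 610 and 1376 CPM and medians of 325, 272 and 1100 CPM, and it was found in 80.2%, 84.5% and 100% of cells. Zmat3 had means of 8.78, 7.68 and 64.3 CPM and was found in 9.88%, 5.17% and 35.2% of cells. Trp53inp1 had means of 56.6, 121 and 17.5 CPM and was found in 12.3%, 22.4% and 25.4% of cells, so its share did not follow its mean, and without the highest cell of each set the means were 39.6, 78.3 and 13.2 CPM. The genes of highest mean beside Perp were Btg2, an antiproliferative gene (1440, 1187 and 1660 CPM), and Plk2 (235, 491 and 412 CPM, or 307 in the unmarked set without its highest cell).

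Among the 5 regulators of p53 and relatives, 1 was higher and 1 was lower. Trp63, a p53 relative and core basal gene, had means of 91.1, 83.7 and 267 CPM, medians of 8.01, 9.97 and 106 CPM, and was found in 50.6%, 51.7% and 84.5% of cells. Mdm4, which restrains p53 together with Mdm2, had means of 59.7, 66.9 and 24.5 CPM and was found in 22.2%, 15.5% and 29.6% of cells. Without the highest cell of each set its means were 43.6, 39.2 and 20.5 CPM, which ends its call. Usp7, the deubiquitinase of MDM2 and p53, had means of 106, 246 and 368 CPM (log2 ratios 1.70 and 0.57). In the unmarked set 1 cell held 43.8% of its sum, and the means without the highest cell of each set were 99.3, 140 and 271 CPM.

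Genes of dividing cells were given beside the cyclins. Of 14 proliferation genes, 9 reached the limit on low values, of which 5 were higher in pregnancy than in both adult sets, against 8.75% of all genes, and 0 were lower, against 5.18%. The summed median of the 14 genes was 33.6, 28.5 and 186 CPM. At least 3 of them reached 100 CPM in 2 of 81, 3 of 58 and 11 of 71 cells. Mki67 was found in 9.88%, 19.0% and 52.1% of cells, with log2 ratios of 2.66 against marked and 0.60 against unmarked adult cells. In the unmarked set 1 cell held 73.5% of its sum, and its means without the highest cell of each set were 8.57, 29.9 and 141 CPM. Pcna went the other way, with means of 60.9, 89.7 and 44.8 CPM in 53.1%, 41.4% and 33.8% of cells, and Plk1 had means of 2.03, 14.5 and 0.140 CPM. Without the highest cell of each set the Pcna means were 57.4, 53.2 and 35.6 CPM. In the unmarked set 1 cell held 88.9% of the Plk1 sum, and the Plk1 means without the highest cells were 0.679, 1.64 and 0 CPM. The part of dividing cells in the values of the members was not tested.

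Across the cells of a set, Spearman's rho on log2(CPM + 10) was small for most pairs of members. It is given as a description, since cells of a set may share animals and capture runs and most values are sparse. Ccnd1 with Ccnd2 had 0.27, 0.34 and 0.10 in the marked (81 cells), unmarked (58 cells) and pregnancy (71 cells) sets, Ccnd2 with Cdk4 had 0.40, 0.25 and 0.24, and Trp53 with Cdkn1a had 0.06, 0.07 and -0.11. With the summed proliferation genes Cdk4 had 0.26, 0.21 and 0.44, and Ccnd1 had 0.16, 0.37 and -0.12. With the number of genes after thinning Ccnd2 had 0.39, 0.50 and 0.08, higher in both adult sets than in pregnancy. The same order held for Ccnd1 (0.27, 0.45 and 0.09), Cdkn1c (0.26, 0.49 and 0.15) and Trp53 (0.32, 0.42 and 0.14). It also held for Mdm2 (0.35, 0.38 and 0.16) and Cdkn1a (0.16, 0.13 and 0.09), but not for Ccnd3, Cdk4, Cdk6 and Cdkn1b. Cdkn1a had -0.24, -0.14 and -0.33 with the mitochondrial percent.

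For members found in at least 25% of cells of every set, the genes most like them were sought among 2677 genes by the smallest rho over the sets. A rho of at least 0.3 in each set was reached for Trp53, with Psme4 (0.38, 0.34 and 0.35), a proteasome activator, and Prdx4 (0.33, 0.40 and 0.35), a peroxiredoxin of the endoplasmic reticulum. For Ccnd1, Ccnd2, Cdk4, Cdkn1a and Mdm2 no gene reached it.

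Leaving out retained cells with fewer than 6 core basal genes at 100 CPM, an alternative added after the data were seen, left 0 members higher and Trp53 lower in mean, and left Ccnd1, Ccnd2 and Cdkn1c as the members found in more pregnancy cells.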

How the data were processed

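The deposited values were counts of whole read pairs per Entrez gene in each of 312 cells, without normalization and without molecular identifiers. According to the study's methods and processing notes, the authors aligned reads to mm10 (GRCm38) with Subread 1.5.0 and assigned them with featureCounts and its RefSeq annotation. Strandedness is not stated. Reads copied by PCR are counted separately, so intervals and limits of read counts cover counting error only. Intervals of medians and of shares are over the cells of a set and do not cover differences between animals or capture runs.

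Symbols were matched for 25275 of 27179 IDs from the RefSeq table of GRCm38, and the 1904 others held 1.66% of reads. These, 15 mitochondrial and 125 ribosomal protein genes were left out. CPM, set means, medians, log2 ratios with a pseudocount of 10 CPM, thinning without replacement, exact Clopper-Pearson, Poisson and binomial-rank 95% intervals and Spearman's rho were computed in Python 3.11.15 (numpy 2.4.6, pandas 2.3.3, scipy 1.17.1), and scaling factors for alternatives with edgeR 4.0.16 and DESeq2 1.42.0 in R 4.3.3. No test across cells was run, and no doublet caller. Total reads per cell ranged from 41 to 529822. Scripts were tested on simulated data. The members and lists were chosen with earlier results of these data known. Named genes were all members, pathway genes past the fold against both adult sets, the 3 of highest mean per list, and genes alike at a rho of at least 0.3. Genes named beyond this rule, the p53 half-site and the 25 point limit were chosen after values or sequences were seen.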

Additional observations from a re-analysis of the deposited data

Results flagged for a closer look

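Cells that did not pass the filter also held reads of the 10 members, which no comparison above used. The 31 marked adult cells left out had 1018.74 member reads per 1000000 assigned reads (461 reads, exact Poisson interval 928 to 1116), against 2578 in the retained cells of that set. The 67 unmarked adult cells left out had 2872.55 per 1000000 (2066 reads, 2750 to 2999), against 2022 in the retained cells, and the 4 pregnancy cells left out had 1944.05 per 1000000 (182 reads, 1672 to 2248), against 2396. All lie above the limit that a count of 0 allows (6.63, 4.17 and 32.0 per 1000000), which such read numbers made certain, so it shows only that reads were present. The intervals pool reads over cells and leave out the spread over cells, so they do not measure the difference from the retained cells. No explanation was tested.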

How the results depend on the processing

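The count of members higher in pregnancy stayed at 0 in all settings but the mean of log2(CPM + 10), which gave 3 (Ccnd1, Ccnd2 and Cdkn1c). In that setting the median ratio over all genes was 0.18 against marked and 0.23 against unmarked adult cells. The main values were 0.05 and 0.08. The share of all genes past the fold was counted in the main setting only, so the counts of members and pathway genes in other settings have no share beside them. The count of members lower in pregnancy, 1 (Trp53), was 0 with a pseudocount of 100 CPM, with the mean of log2(CPM + 10) and with CPM of summed reads. The 5 pathway genes higher in pregnancy became 1 with a pseudocount of 100 CPM, 3 with totals that included mitochondrial and ribosomal genes and 2 with a limit of 50 CPM. With the mean of log2(CPM + 10) the count stayed at 5, but E2f3, E2f4 and Zmat3 were lost and Cks1b, Plk2 and Usp7 came in. The 2 pathway genes lower became 4 with a pseudocount of 1 CPM, 0 with a pseudocount of 100 CPM, 0 with the mean of log2(CPM + 10) and 1 without the highest cell of each set (Trp53inp1, while Mdm4 was lost). The 3 members found in more pregnancy cells became 2 at 100 CPM without thinning (Ccnd1 and Ccnd2, against 1.82% of all genes), and 5 with a limit of 15 points (against 22.0% of all genes), where the main share of all genes was 7.81%. Of 60 recomputed counts 48 stayed within 1.5 times. Of 330 recomputed ratios of single members none changed the direction of a call, 10 ended one and 34 passed 1 where the main value had not. Of 180 recomputed shares of cells 71 left the interval of the main value. With cells of at least 20000 reads and 500 genes, the Cdk4 ratio of pregnancy over unmarked adult cells was -2.43. The cause of these shifts was not tested. No paired analysis was possible because the labels give each set 1 sample.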

Other observations

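Immediate early genes, which dissociation of tissue is known to induce, were high in all sets, with a summed median over 13 genes of 9898, 5578 and 9112 CPM in marked adult, unmarked adult and pregnancy cells. Of these 13 genes 1 was higher and 1 was lower in pregnancy than in both adult sets, against 8.75% and 5.18% of all genes. Some p53 targets differed between the adult sets through few cells: Polk had means of 13.2, 92.0 and 2.77 CPM and was found in 6.17%, 12.1% and 8.45% of cells, and Aen had means of 32.6, 1.53 and 0.312 CPM and was found in 4.94%, 5.17% and 2.82%.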
